A study of Mus musculus with 7 samples.

Results

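Genes that mark the excitatory neurons of the cerebral cortex and hippocampus were followed on 7 bead arrays of mouse brain RNA. The 6 genes were chosen by symbol: Camk2a, Slc17a7, Nrgn, Neurod6 and Tbr1, with Slc17a6 as the subcortical counterpart of Slc17a7. The array carried 8 probes for them, out of 25697 in all. A value was given on every array for 6 of these probes, among 13304 probes with a value, and they covered 5 of the 6 genes. The only probe of Neurod6 and 1 of the 3 probes of Camk2a had no value on any array and are not described further.

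Brain tissue came from female C57BL/6 mice of 5 weeks of age. Treated mice received an aqueous extract of Ephedra herba, a plant drug with sympathomimetic alkaloids, by mouth once a day. There was 1 array for each of 50 and 1250 mg/kg after 1, 3 and 10 days, and 1 array of untreated mice, for which the labels give no vehicle and no day. The number of mice behind each array is not given in the labels. No condition was repeated, so the doses of a day stand in as its repeated arrays when days are compared. The p-values of days and doses measure the spread left between arrays after both factors, which also holds any dose by day difference. They do not measure a spread between repeats of a condition, and the small number of arrays limits the precision.

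Excitatory neurons load glutamate into synaptic vesicles with a vesicular transporter. Slc17a7 encodes VGLUT1, the main form in cortex, hippocampus and cerebellar granule cells, and Slc17a6 encodes VGLUT2, the main form in thalamus, hypothalamus and brainstem. Camk2a encodes the alpha subunit of the calcium and calmodulin dependent kinase CaMKII, which is abundant at forebrain synapses and needed for long-term potentiation. Nrgn encodes neurogranin, a postsynaptic protein that binds calmodulin. Neurod6 and Tbr1 encode transcription factors of cortical projection neurons, and Tbr1 is also expressed in projection neurons of the olfactory bulb. In bulk tissue, fewer cells of a type, less RNA per cell and another share of brain regions in the tissue taken cannot be told apart.

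The promoter windows of Nrgn and of the transporter pair are shown because Slc17a6 and Nrgn differed in opposite directions between days 10 and 1, with Slc17a7 between them. Each has 250 bases before and 50 after a transcription start (RefSeq, GRCm38.p6), with matches to CAGATG, a motif of NeuroD-type factors, in capitals. Windows of 5 of the 6 genes were searched. Camk2a, which also differed between these days, was left out of the search, so its promoter is not described.
Nrgn, chr9:37552696-37552995, minus strand: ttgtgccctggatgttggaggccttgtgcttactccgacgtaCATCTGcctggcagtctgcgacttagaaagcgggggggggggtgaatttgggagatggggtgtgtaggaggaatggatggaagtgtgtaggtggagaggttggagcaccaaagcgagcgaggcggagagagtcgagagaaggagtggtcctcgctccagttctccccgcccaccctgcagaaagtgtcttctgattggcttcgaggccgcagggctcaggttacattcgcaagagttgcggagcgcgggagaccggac
Slc17a7, chr7:45163671-45163970, plus strand: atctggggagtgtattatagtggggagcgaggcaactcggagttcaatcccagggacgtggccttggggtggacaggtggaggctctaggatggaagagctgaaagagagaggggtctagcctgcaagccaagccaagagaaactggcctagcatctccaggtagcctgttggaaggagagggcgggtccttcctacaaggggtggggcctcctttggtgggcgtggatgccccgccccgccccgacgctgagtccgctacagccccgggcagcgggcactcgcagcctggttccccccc
Slc17a6 at its first start, chr7:51621580-51621879, plus strand: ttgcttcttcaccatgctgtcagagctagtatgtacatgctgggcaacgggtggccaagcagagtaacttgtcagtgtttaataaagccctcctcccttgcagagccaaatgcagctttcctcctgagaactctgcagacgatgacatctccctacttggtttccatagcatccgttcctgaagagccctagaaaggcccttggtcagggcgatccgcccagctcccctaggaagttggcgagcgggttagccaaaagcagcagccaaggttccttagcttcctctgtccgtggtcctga
Slc17a6 at its other start, chr7:51624387-51624686, plus strand: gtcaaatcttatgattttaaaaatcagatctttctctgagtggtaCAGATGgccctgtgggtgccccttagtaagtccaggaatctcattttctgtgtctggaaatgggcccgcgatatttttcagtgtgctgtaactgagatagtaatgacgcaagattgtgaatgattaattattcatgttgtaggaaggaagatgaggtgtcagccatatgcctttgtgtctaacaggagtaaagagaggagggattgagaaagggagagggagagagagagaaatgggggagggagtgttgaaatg
Both strands were searched for CAGATG, for the Egr motif GCGNGGGCG, for the AP-1 motif TGANTCA and for the CRE motif TGACGTCA. CAGATG was found once in the Nrgn window, on the minus strand of the printed sequence at -208 from the start, and once in the other window of Slc17a6 at -205. It occurs in 17.2% of the 32851 promoter windows of this length, so a match is a description and not a site. The windows of Slc17a7, Tbr1 and Neurod6 held no match to any of the 4, and the other motifs occur in 5.55% (Egr), 7.81% (AP-1) and 1.79% (CRE) of all windows.

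Values below are deposited log intensities after quantile normalization, which gives every array the same distribution. The log base is not given by the labels and is taken as 2, and differences are given in log units. The members are bright: by mean over the arrays, the Camk2a probes lay at percentiles 97.4 and 90.1 of all probes, Slc17a7 at 96.8, Nrgn at 96.2, Slc17a6 at 95.6 and Tbr1 at 72.4. Scaling matters for such probes. In the deposited values the 1331 brightest probes (the top 10%) had a median difference of -0.26 on day 10 against day 1, and of -0.0033 after quantile normalization, a comparison made after the data had been seen. All treated arrays correlated with the untreated one across probes at 0.980 to 0.995, and arrays of a shared day deviated together (0.58 on day 1, 0.72 on day 3 and 0.44 on day 10).

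Camk2a was lower after 10 days than after 1 day of dosing by both of its probes. With the 50 mg/kg array named before the 1250 mg/kg array of each day, probe 2630600 read 6.30 untreated, 6.51 and 6.40 after 1 day, 6.34 and 6.30 after 3 days, and 5.95 and 6.05 after 10 days. Its day 10 values lay below all the others, and its day 1 values were the highest. Probe 3060288 read 4.91 untreated, 4.82 and 5.27 after 1 day, 4.64 and 4.67 after 3 days, and 4.36 and 4.42 after 10 days. Here too the day 10 arrays were lowest, but the array of day 1 at 1250 mg/kg stood 0.36 above the untreated one while that at 50 mg/kg differed by -0.088. The probes are annotated to the same transcript, and their values correlated at 0.75 over the 7 arrays (Spearman 0.68).

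Nrgn followed a like course and missed the threshold. It read 5.97 untreated, 6.05 and 6.05 after 1 day, 5.83 and 5.95 after 3 days, and 5.77 and 5.45 after 10 days. Both day 10 values lay below both day 1 values, with the lowest at 1250 mg/kg, where the difference from the untreated array was -0.51.

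Slc17a7 did not share that course after quantile normalization. It read 6.06 untreated, 6.11 and 5.96 after 1 day, 6.24 and 6.23 after 3 days, and 5.76 and 6.02 after 10 days. The day 3 arrays were highest, and the array of day 10 at 50 mg/kg alone was low, at -0.29 relative to the untreated one, while at 1250 mg/kg the value lay within the range of day 1. This changed with the scaling. The deposited values were 6.21 untreated, 6.25 and 6.15 after 1 day, and 6.03 and 6.18 after 3 days. After 10 days they were 5.67 and 5.92, the lowest, with the highest on day 1 at 50 mg/kg.

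Tbr1 read 3.27 untreated, 3.51 and 2.96 after 1 day, 3.19 and 3.26 after 3 days, and 3.11 and 3.01 after 10 days. Its highest and its lowest value both came from day 1, at 50 and at 1250 mg/kg, a difference of -0.55 for 1250 less 50 mg/kg on that day.

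Slc17a6 ran opposite to Camk2a. It read 5.55 untreated, 5.44 and 5.33 after 1 day, 5.93 and 5.83 after 3 days, and 5.91 and 5.87 after 10 days. The 4 arrays of days 3 and 10 lay above the untreated array and both day 1 arrays lay below it. Across the 7 arrays it correlated with Camk2a at -0.67 and -0.89 by probe (Spearman -0.57 and -0.86), as a description of arrays that share days.

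**Figure D1:**
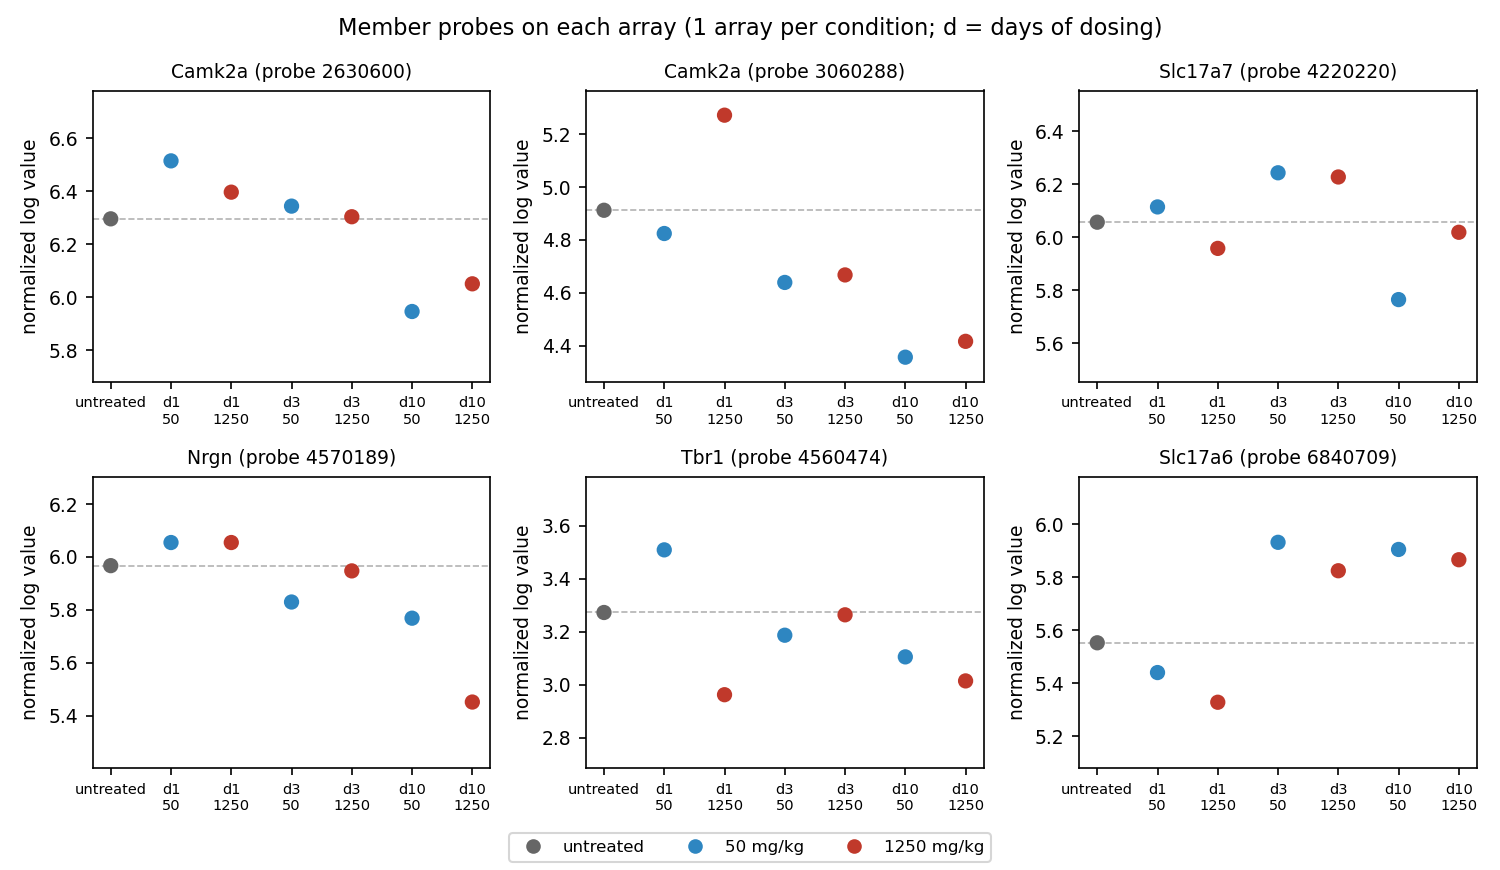
Normalized log value (vertical axis, the same span in each panel) of each member probe on the 7 arrays (horizontal axis), in grey for the untreated array, blue for 50 mg/kg and red for 1250 mg/kg, with the untreated value as a dashed line. Both Camk2a probes and Nrgn are lowest on day 10, and Slc17a6 is higher on days 3 and 10 than on day 1.

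Day 10 was set against day 1 in a linear model over the 6 treated arrays with the dose as a block (limma, p-values adjusted by Benjamini-Hochberg over all 13304 probes, threshold 0.05). By this test both Camk2a probes fell and Slc17a6 rose. Of the 6 member probes 2 were called lower and 1 higher, beside 0.699% lower, 1.8% higher and 2.5% in either direction of all probes. Camk2a averaged 6.00 on day 10 and 6.46 on day 1 by probe 2630600, a difference of -0.46 ± 0.11 (standard error of the model, 2 arrays a day, limma adjusted p = 0.0282). By probe 3060288 it averaged 4.39 on day 10 and 5.05 on day 1 (-0.66 ± 0.12, limma adjusted p = 0.00697). Slc17a6 averaged 5.89 on day 10 and 5.38 on day 1 (0.50 ± 0.11, limma adjusted p = 0.0157). This call rests on the scaling: in the deposited values its difference was 0.24 (limma adjusted p = 0.257), and with arrays scaled to a common median 0.28 (limma adjusted p = 0.174).

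Nrgn averaged 5.61 on day 10 and 6.05 on day 1, a difference of -0.44 ± 0.12 that missed the threshold (limma adjusted p = 0.0501). In the deposited values it differed by -0.69 (limma adjusted p = 0.00682) and after median scaling by -0.65 (limma adjusted p = 0.00609), so it passed there. Slc17a7 averaged 5.89 on day 10 and 6.04 on day 1 (-0.14 ± 0.12, 95% interval -0.39 to 0.098, limma adjusted p = 0.564), and its arrays overlapped. In the deposited values its arrays did not overlap, and it differed by -0.40 (limma adjusted p = 0.0725). Tbr1 averaged 3.06 on day 10 and 3.24 on day 1 (-0.18 ± 0.14, interval -0.46 to 0.11, limma adjusted p = 0.554). In the 6 probes after quantile normalization, the arrays of the 2 days did not overlap for Camk2a (both probes) and Nrgn, lower on day 10, and for Slc17a6, higher. Among all probes 24.3% did not overlap in the lower and 20.6% in the higher direction.

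**Figure D2:**
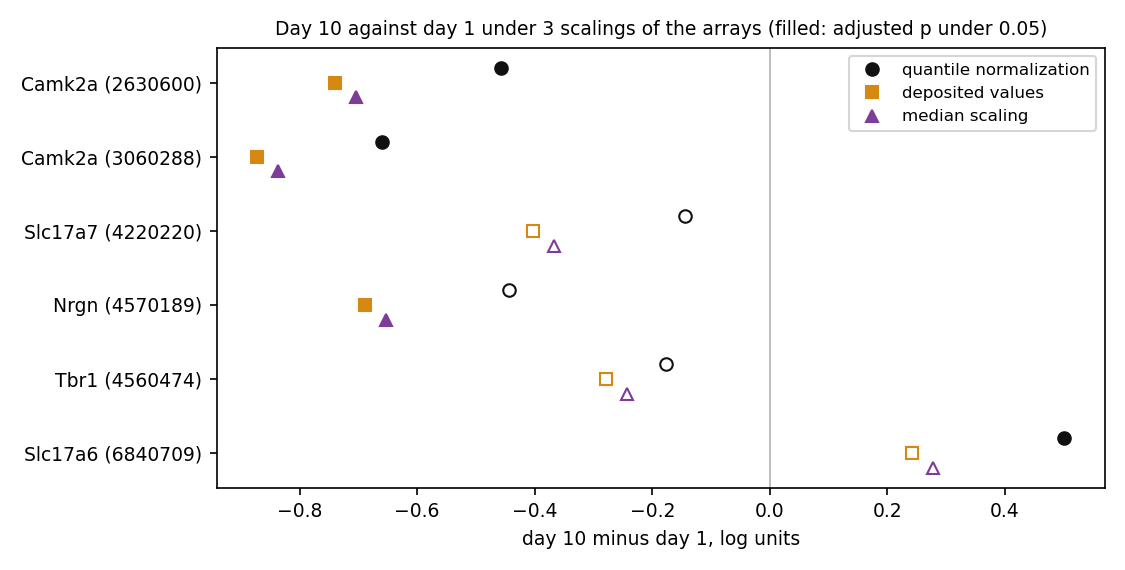
Difference of day 10 minus day 1 in log units (horizontal axis) for each member probe under 3 scalings of the arrays: circles for quantile normalization, squares for the deposited values and triangles for a common median, filled where the adjusted p is under 0.05. Both Camk2a probes are filled under all 3, Nrgn under the deposited values and median scaling, and Slc17a6 under quantile normalization alone.

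The calls rested on few arrays, since the residual had 2 degrees of freedom beside a prior of 18.0 shared by all probes. Without the array of day 10 at 1250 mg/kg, 0 of the 6 member probes were called in either direction (limma adjusted p = 0.0830 and 0.0714 for the Camk2a probes and 0.200 for Slc17a6), with differences of -0.55 and -0.57 for the Camk2a probes and 0.47 for Slc17a6. Without day 10 at 50 mg/kg, Camk2a by probe 2630600 (limma adjusted p = 0.311) and Slc17a6 (0.0810) were no longer called. Camk2a by probe 2630600 also missed without day 1 at 50 mg/kg (0.0576), and by probe 3060288 without day 1 at 1250 mg/kg (0.0989). Nrgn leaned on 1 array as well: without day 10 at 1250 mg/kg its difference was -0.26 (limma adjusted p = 0.656).

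The change of Slc17a7 less that of Slc17a6, taken within each array, moved little with the scaling. Relative to the untreated array it was 0.17 and 0.13 after 1 day, -0.19 and -0.10 after 3 days, and -0.64 and -0.35 after 10 days. In the deposited values it was 0.13 and 0.10 after 1 day, -0.25 and -0.14 after 3 days, and -0.69 and -0.36 after 10 days. VGLUT1 transcript was lower relative to VGLUT2 transcript on both day 10 arrays than on both day 1 arrays under either scaling, by -0.65. A shift that both probes of an array share cancels in this difference, and both are of like brightness (percentiles 96.8 and 95.6). The likeness of the scalings was thus largely fixed in advance. An exact two-sided permutation test of 2 arrays against 2 gave p = 0.333, the smallest it can give. Between 1250 and 50 mg/kg the same quantity differed by 0.11 (exact permutation p = 0.7, 3 arrays per dose, where the smallest possible is 0.1). This permutation ignored that each dose pair shares a day, so its p also holds the spread between days.

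**Figure D3:**
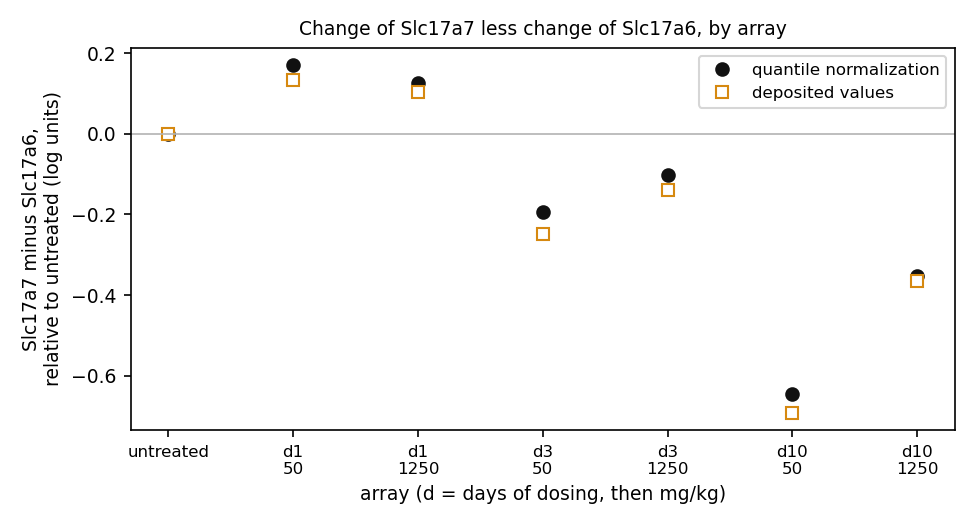
Change of Slc17a7 less change of Slc17a6 on each array (horizontal axis), in log units relative to the untreated array, as black circles after quantile normalization and open squares in the deposited values. Both scalings put the day 1 arrays above 0, day 3 below it and day 10 lowest.

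Day 3 was set against the mean of days 1 and 10 in the same model. None of the 6 member probes was called, while 11.3% of all probes were called higher, 8.82% lower and 20.1% in either direction. At an unadjusted p under 0.05, 2 of the 6 passed, Slc17a7 and Slc17a6, beside 33.4% of all probes, so their count is no more than the background. Slc17a7 averaged 6.23 on day 3 and 5.96 on days 1 and 10 (0.27 ± 0.10, limma adjusted p = 0.0624), and its day 3 arrays lay above the other 4, the only member without overlap (17.5% of all probes did not overlap in the higher and 21.4% in the lower direction). Slc17a6 averaged 5.88 on day 3 and 5.64 on days 1 and 10 (0.24 ± 0.094, limma adjusted p = 0.0732). These differences were 0.11 and 0.098 in the deposited values. The Camk2a probes differed by 0.097 and -0.064, Nrgn by 0.056 and Tbr1 by 0.078, with standard errors of 0.094 to 0.12. In the deposited values the signs of the first Camk2a probe, Nrgn and Tbr1 turned (-0.058, -0.089 and -0.011). Without day 1 at 50 mg/kg both transporters passed (limma adjusted p = 0.00698 for Slc17a7 and 0.0344 for Slc17a6), and Slc17a7 also passed without day 10 at 1250 mg/kg (0.0357).

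Dose made no difference that the model could call for these genes. Of all probes 0.143% were called higher and 0% lower at 1250 than at 50 mg/kg, and 0 of the 6 member probes were among them. At an unadjusted p under 0.05, 0 of the 6 passed as well, beside 5.41% of all probes, and by exact permutation 3 arrays against 3 cannot go below 0.1. The differences were -0.018 ± 0.089 and 0.18 ± 0.10 for the Camk2a probes, 0.027 ± 0.095 for Slc17a7, -0.066 ± 0.097 for Nrgn, -0.19 ± 0.11 for Tbr1 and -0.086 ± 0.089 for Slc17a6. The 95% intervals reached from -0.20 to 0.17 for Camk2a by probe 2630600 and from -0.42 to 0.048 for Tbr1, the widest. By day, 1250 minus 50 mg/kg was -0.55, 0.077 and -0.091 for Tbr1 on days 1, 3 and 10, so its size came from day 1. For Nrgn it was 0, 0.12 and -0.32, and for Slc17a7 -0.16, -0.016 and 0.25. Slc17a6 was lower at 1250 mg/kg on all 3 days, at -0.11, -0.11 and -0.039. Camk2a by probe 3060288 was higher on all 3 days, at 0.45, 0.028 and 0.060, so its size came from day 1. By probe 2630600 Camk2a differed by -0.12, -0.040 and 0.10. The dose difference of the first Camk2a probe turned sign with the scaling (0.082 in the deposited values).

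Over all treated arrays against the single untreated one, limma called 0 of 13304 probes (0% in either direction), with 268 (2.01%) at an unadjusted p under 0.05 and none of the member probes among these. With 1 untreated array the 95% intervals were wide, from -0.81 to 0.38 for Camk2a by probe 3060288 and from -0.32 to 0.65 for Slc17a6. The members' differences ran from -0.22 ± 0.27 for Camk2a by probe 3060288 to 0.16 ± 0.22 for Slc17a6. Slc17a7 averaged 6.05 on the 6 treated arrays and 6.06 on the untreated array (-0.0024 ± 0.17). For every member probe the treated arrays lay on both sides of the untreated value.

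**Figure D4:**
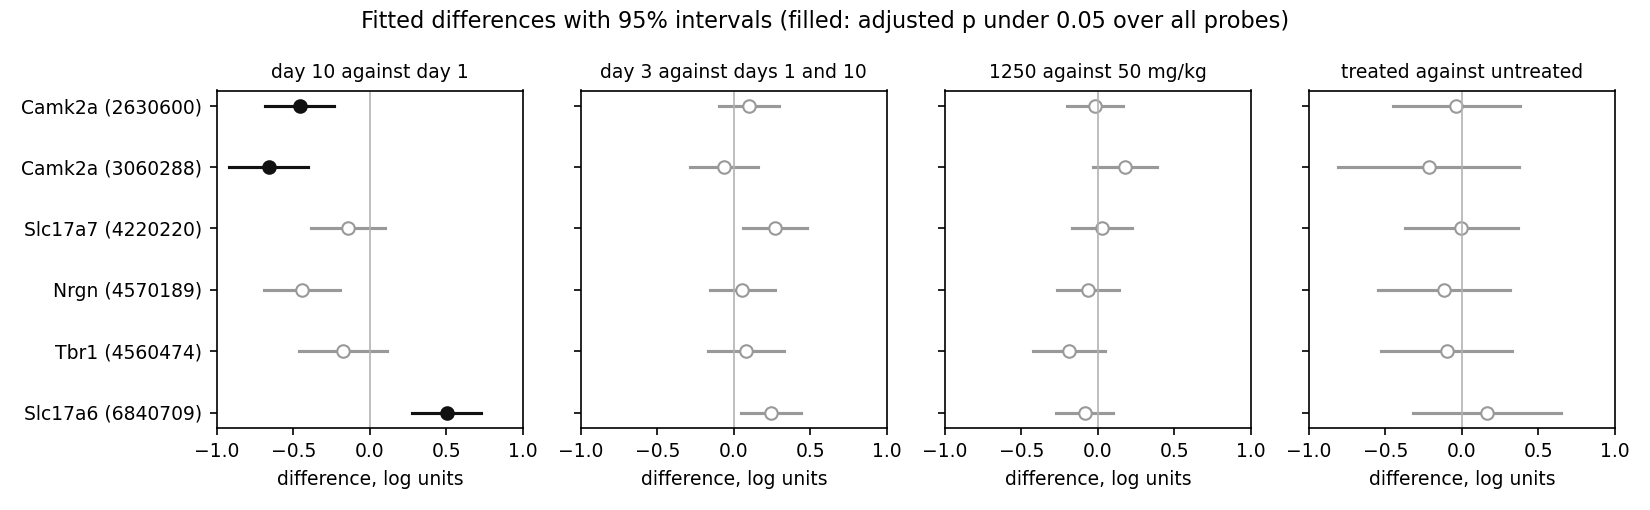
Fitted difference (points, in log units) with its 95% interval (lines) for each member probe in the 4 comparisons, filled in black where the adjusted p over all probes is under 0.05. Only day 10 against day 1 has filled points, which are both Camk2a probes below 0 and Slc17a6 above it.

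Other markers of cortical and hippocampal excitatory neurons leaned the same way as Camk2a without any call. Of 25 such genes listed beside the members, 18 were measured. On day 10 against day 1, 15 of the 18 were lower (83.3%, against 52.6% of all 9009 named genes), with a median of -0.17 beside -0.012 over all genes, and 0 were called. Lowest, and named after its value was seen, was Nptx1, a secreted synaptic pentraxin (-0.44 ± 0.13, limma adjusted p = 0.0702). Against the untreated array the median of the 18 was 0.11 and -0.037 after 1 day, -0.0054 and -0.077 after 3 days, and -0.059 and -0.10 after 10 days.

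On day 3 against days 1 and 10, 4 of the 18 rose and 1 fell. Other lists had calls on the same arrays, in both directions. Of 10 pan-neuronal genes 4 rose and 1 fell, of 9 oligodendrocyte markers 2 rose and 1 fell, and of 8 striatal markers 1 rose and 1 fell. Risers alone were 3 of 4 hindbrain, 2 of 7 astrocyte, 1 of 7 cerebellar, 1 of 4 olfactory bulb and 1 of 8 inhibitory interneuron markers. Of 10 transcripts of tissues outside the brain 6 fell. Rorb, a nuclear receptor of cortical layer 4, differed by 0.62 ± 0.11 (limma adjusted p = 0.000326), Cux2, a homeodomain factor of upper layers, by 0.57 ± 0.11 (limma adjusted p = 0.00111) and Mef2c, a transcription factor of forebrain neurons, by 0.46 ± 0.095 (limma adjusted p = 0.0015). Neurod2, a relative of Neurod6, differed by 0.31 ± 0.11 (limma adjusted p = 0.0486, lost in the deposited values at 0.0705 and after median scaling at 0.0516), and Sv2b, a protein of synaptic vesicles, by -0.30 ± 0.094 (limma adjusted p = 0.0303). These calls stand beside 11.3% of all probes called higher and 8.82% called lower. For dose and for treatment 0 of the 18 were called.

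Of the calmodulin and postsynaptic partners of Camk2a and Nrgn, 11 of 15 were measured. On day 10 against day 1, 5 were higher and 6 lower, and 1 fell: Dlg4, which encodes the scaffold PSD-95, at -0.50 ± 0.12 (limma adjusted p = 0.0275). It read 4.05 untreated, 3.90 and 4.15 after 1 day, 3.53 and 3.68 after 3 days, and 3.41 and 3.65 after 10 days. Its day 10 values lay below its day 1 values, as those of Camk2a and of 24.3% of all probes did. On day 3 Dlg4 was already below the untreated array, like Camk2a by probe 3060288 but unlike probe 2630600. The other CaMKII subunit genes, named after their values were seen, missed the threshold: Camk2b differed by -0.086 ± 0.11 (limma adjusted p = 0.735), Camk2d by 0.063 and Camk2g by -0.094. Ppp3ca, the catalytic subunit of calcineurin, and Calm2, a calmodulin gene, rose on day 3 against days 1 and 10 (0.28 and 0.29, limma adjusted p = 0.0431 and 0.0365), with both calls lost in the deposited values (0.14 and 0.15, limma adjusted p = 0.438 and 0.384) and after median scaling. Among genes of glutamate supply and uptake, 7 of 9 were measured and 1 changed, Slc38a2, a neutral amino acid transporter that carries glutamine, which rose on day 10 against day 1 (0.61 ± 0.12, limma adjusted p = 0.0081).

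Markers of other brain regions moved with the same arrays. Of 14 cerebellar markers 7 were measured, all 7 were higher on day 10 than on day 1, and 6 rose, with a median of 1.47 and a range of 0.16 to 4.15. Of the 6, Pvalb (0.65, limma adjusted p = 0.0411) was not called in the deposited values (0.39, limma adjusted p = 0.160) or after median scaling, and without day 10 at 1250 mg/kg it differed by 0.15. Among them Pcp2 of Purkinje cells read 0.035 untreated, -0.63 and 0.40 after 1 day, 3.02 and 1.93 after 3 days, and 3.00 and 5.07 after 10 days. The hindbrain list had 4 of 10 measured, all 4 higher on day 10, and Tph2 and Slc6a4 of serotonin neurons rose (1.41 ± 0.13 and 0.89 ± 0.14, limma adjusted p = 4.06e-06 and 0.00134). Of 8 striatal markers 7 were lower and 0 were called (median -0.28). The cerebellar medians against the untreated array were -0.16 and 0.11 after 1 day, 1.01 and 0.52 after 3 days, and 0.96 and 1.98 after 10 days. The array of day 10 at 1250 mg/kg was highest in cerebellar transcripts and lowest for Nrgn, whereas both Camk2a probes and Slc17a7 were lowest on day 10 at 50 mg/kg, where the cerebellar median was close to that of day 3 at 50 mg/kg. The part of such regional differences in the values of Camk2a, Nrgn and Slc17a6 was not tested.

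Thalamus and brainstem both belong to the territory of Slc17a6. On day 10 against day 1 the 4 measured hindbrain markers were all higher (median 0.64), whereas thalamic markers lay on both sides of 0. Of 11 thalamic markers listed, 7 were measured, with 3 higher and 4 lower than on day 1 (median -0.030). Calb2 (calretinin), which is also found in cerebellar granule cells and interneurons, rose on day 10 against day 1 by 0.56 ± 0.14 (limma adjusted p = 0.0413), a call lost in the deposited values (0.33, limma adjusted p = 0.161) and after median scaling (0.36, limma adjusted p = 0.116). Without day 10 at 1250 mg/kg Calb2 differed by 0.28. On day 3 against days 1 and 10, Rora, a nuclear receptor that is also found in Purkinje cells, rose (0.31 ± 0.11, limma adjusted p = 0.0451, lost in the deposited values at 0.184 and after median scaling at 0.136), and Rgs16 (-0.48 ± 0.11, limma adjusted p = 0.00328) and Gbx2 (-0.36 ± 0.11, limma adjusted p = 0.0277) fell. The 10 measured pan-neuronal genes had a median of 0.073 on day 10 against day 1 with 6 higher and 4 lower, the 7 astrocyte markers 0.030 with Aqp4 called higher (0.58, limma adjusted p = 0.0106, lost in the deposited values at 0.0638), the 9 oligodendrocyte markers 0.055 and the 8 inhibitory interneuron markers -0.076. Of 4 olfactory bulb markers, 1 fell, Cdhr1 (-0.97 ± 0.19, limma adjusted p = 0.00867), which differed by -0.42 without day 10 at 1250 mg/kg (limma adjusted p = 0.292). All 10 listed transcripts of tissues outside the brain were measured, of which 1 was called higher and 2 lower on day 10 against day 1. The 2 were the pituitary hormones Gh and Prl (-3.74 and -4.62). Their untreated values (0.074 and 0.91) also lay below those after 1 day (2.61 and 3.38 for Gh, 3.63 and 4.11 for Prl). The 1 called higher was Myl2, which read 2.95 untreated, 0.45 and 0.30 after 1 day, and 2.87 and 0.41 after 10 days.

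**Figure D5:**
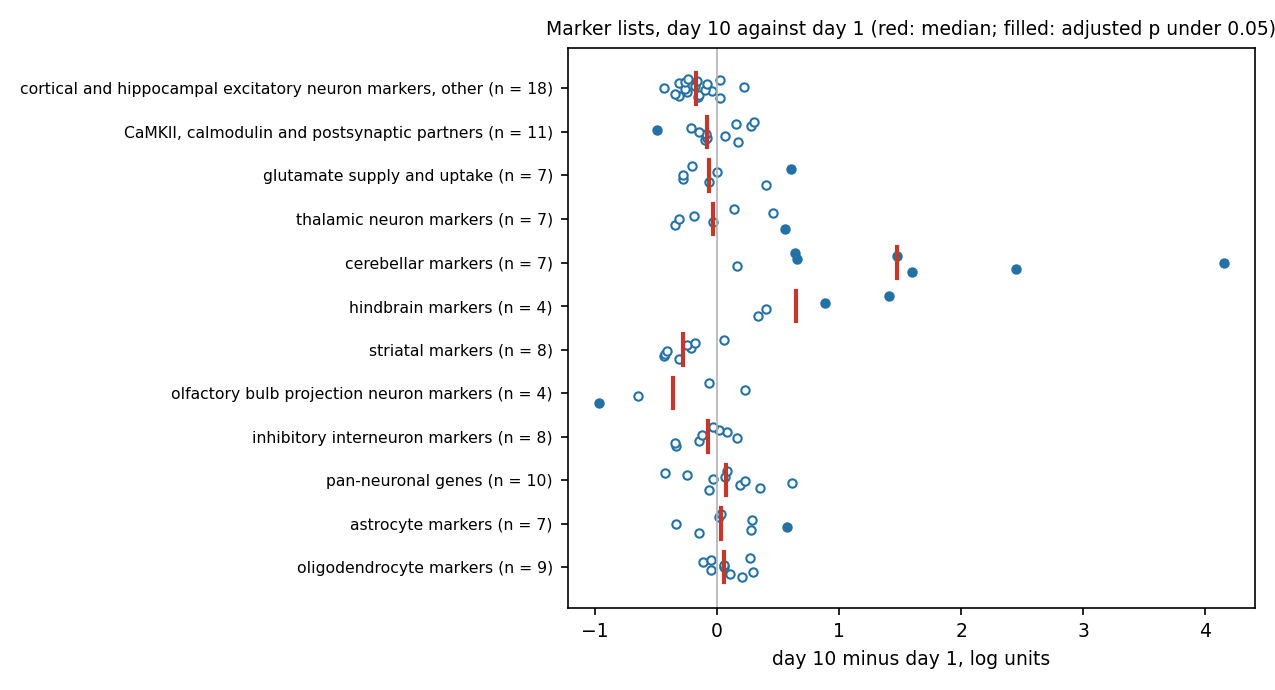
Difference of day 10 minus day 1 in log units (horizontal axis) for each measured gene (points, filled where the adjusted p is under 0.05) of 12 marker lists (down the page), with the list median as a red bar. Cerebellar and hindbrain markers lie to the right, and the other cortical and hippocampal markers lie mostly left of 0 with no filled point.

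The genes whose course over the 7 arrays was most like each member were ranked by Pearson correlation among 4673 other genes with a standard deviation of at least 0.15 over the arrays. For Camk2a (probe 2630600) they were Egr4, Mpped1, Fosb, Abcb8 and Rbm15, at 0.97 to 0.94 (Spearman 0.68 to 0.96). Egr4 and Fosb are immediate early genes. For Nrgn they were Ngef, Tmem121b, Chst2, Efcab1 and Cdkn1a (0.97 to 0.94, Spearman 0.72 to 0.95), of which Ngef encodes ephexin, a guanine nucleotide exchange factor of neurons. For Slc17a7 they were Gtf2a1, Ip6k2, Slc24a2, 6430548M08Rik and Pbxip1 (0.98 to 0.93, Spearman 0.96 to 1). For Tbr1 they were Camk1g, Rusc2, Cnot11, Islr2 and Ddost (0.96 to 0.90, Spearman 0.89 to 0.96). For Slc17a6 they were Gria2, an AMPA receptor subunit, Zfp101, Klhl32, Styx and Slc6a6 (0.99 to 0.97, Spearman 0.89 to 0.96). The lists shared no gene. With 7 arrays in 3 days and so many candidates, these are descriptions of likeness on these arrays.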

How the data were processed

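Biotin-labelled cRNA from brain total RNA was read on 7 bead arrays, per the labels. The deposited table gives log2 intensities with base 2 as an assumption. A natural logarithm is possible too, since the span of the values, 1046-fold in base 2 or 22722-fold in base e, stays under the 65536 steps of a 16-bit scanner. How the authors treated background, normalization and blanks is not recorded in the labels or headers. The deposited blanks were the only filter. A second deposited table has 7 columns whose names match no sample, so these 7 were left out of every step.

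Arrays were quantile normalized and fitted with limma 3.58.1 (R 4.3.3: lmFit, eBayes with intensity trend) over 13304 probes. Of these, 12150 had 1 gene symbol, 0 several and 1154 none, and all 12150 matched by Entrez number to a RefSeq table (GRCm38.p6). Day and dose came from 1 model of the 6 treated arrays, and treatment from a model of 7. Lists used each gene's probe with the highest mean. Alternatives were the deposited values, median scaling, no trend, brighter probes, 1 probe per gene, no block, day as a random block for treatment, and arrays left out. The models were tested on simulated data with independent noise on each array, which leaves out deviations that arrays of a day share. Of 100 probes changed by 0.5, 67 were recovered for day 10 against day 1 and 85 for day 3. For dose 79 were recovered, and for treatment 10. Of the unchanged probes, 4 were called for day 10 against day 1, 16 for day 3, 8 for dose and 13 for treatment.

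Members and lists were chosen with earlier results of these data known. By rule all members, list genes that passed a test and the 5 genes most like each member could be named. Of lists of other cell types, counts are given and some genes named. Each difference holds day and any handling of that day together, which cannot be told apart.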

Additional observations from a re-analysis of the deposited data

Results flagged for a closer look

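Camk2a differed between days under the same contrast: day 10 less day 1 was -0.46 by probe 2630600 (limma adjusted p = 0.0282) and -0.66 by probe 3060288 (0.00697), and Slc17a6 differed by 0.50 (0.0157, lost in the deposited values and after median scaling). The first Camk2a probe was below the untreated array on both day 10 arrays (-0.35 and -0.25 at 50 and 1250 mg/kg) and above it on both day 1 arrays (0.22 and 0.10). Nrgn had the same pattern of signs, with -0.20 and -0.51 on day 10 and 0.087 and 0.087 on day 1, and its difference between days missed the threshold. Slc17a6 had the opposite signs, with 0.35 and 0.31 on day 10 and -0.11 and -0.22 on day 1. The signs are set against 1 untreated array and were not tested as such. In the deposited values each of these day 10 and day 1 differences kept its sign.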

How the results depend on the processing

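On day 10 against day 1, both Camk2a probes were lower in every alternative run (-0.74 to -0.37 for probe 2630600 and -0.87 to -0.46 for probe 3060288). Member probes called lower numbered 2, and 1 with 1 probe per gene, which tests 1 Camk2a probe. Leaving out single arrays gave 0 to 3. Nrgn was the added call, also in the brighter probes (limma adjusted p = 0.0405) and, chosen after seeing the data, without the day 3 arrays (0.0264). With single arrays left out Nrgn ran from -0.64 to -0.26, called without day 1, day 3 or day 10 at 50 mg/kg or day 3 at 1250 mg/kg, and not without day 1 (0.175) or day 10 (0.656) at 1250 mg/kg. Member probes called higher numbered 1, and 0 in the deposited values and after median scaling, or 0 to 1 with single arrays left out. Of all probes, 93 were called lower and 240 higher, with 474 lower and 210 higher in the deposited values, 351 and 278 after median scaling, 48 and 126 with 1 probe per gene, and 49 and 127 without the replicate block. Higher calls were thus 72.1% after quantile normalization, 30.7% in the deposited values and 44.2% after median scaling. Without the day 3 arrays 177 were lower. With single arrays left out, lower calls ran from 33 to 182 and higher calls from 97 to 365. Slc17a7 ran from -0.31 to 0.026 and Tbr1 from -0.44 to 0.093, turning sign without day 10 and day 1 at 50 mg/kg. Without the dose as a replicate block no member call changed (limma adjusted p = 0.0349 and 0.0262 for Camk2a by probes 2630600 and 3060288, 0.0265 for Slc17a6). The labels number no replicates.

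On day 3 against days 1 and 10, 1174 probes were called lower and 1500 higher, with 1836 lower in the deposited values, 705 and 736 among the brighter probes, 762 and 914 with 1 probe per gene, and 281 to 1359 lower and 863 to 1582 higher with single arrays left out. Higher calls were 56.1%, against 41.0% in the deposited values and 46.1% after median scaling. Member probes called higher numbered 0, and 0 to 2 with arrays left out. The signs turned for Camk2a probe 2630600 (-0.058 deposited, -0.036 median scaling), Nrgn (-0.089 and -0.068) and Tbr1 (-0.011 deposited). With arrays left out, Camk2a probe 3060288 ran from -0.18 to 0.050, Nrgn from -0.080 to 0.19 and Tbr1 from -0.12 to 0.28. Between doses 19 probes were called higher, with 2 among the brighter probes and 0 without the day as a replicate block, and 13 to 54 higher and 0 to 13 lower with arrays left out. Camk2a probe 2630600 turned to 0.082 in the deposited values and 0.083 after median scaling, and ran from -0.080 to 0.034 with arrays left out, as did Slc17a7 from -0.086 to 0.12 and Nrgn from -0.16 to 0.061. For treatment, 0 to 1 probes were called lower with arrays left out, Camk2a probe 2630600 ran from -0.088 to 0.026 and Slc17a7 from -0.040 to 0.057. Of 16 list genes called on day 10, 3 were not called with the values as deposited, 2 under median scaling and 9 when some single array was left out. Of 34 called on day 3, these were 9, 9 and 26, and no sign turned. The causes were not tested. Pairs of Slc17a7 and Slc17a6 probes gave no alternative, since each has 1 probe with a value.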
